A study of Mus musculus with 6 samples.

Results

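Transcripts for glycolysis and the tricarboxylic acid (TCA) cycle were examined in primary mouse embryonic fibroblasts (MEFs) from which Kansl1 had been deleted. KANSL1 is a subunit of the NSL complex, which acts on chromatin at gene promoters. The set holds 45 genes for glucose uptake, glycolysis, lactate handling, pyruvate entry and the TCA cycle, taken by gene symbol from a table of 26898 genes, and all 45 were found. The rule names the genes by symbol and uses no measured value, though the list was drawn up with earlier results of these data known. RNA was sequenced from 6 samples, 3 per group, and expression was given as TPM, a unit in which reads are divided by gene length and each sample is scaled to the same total.

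Both groups were C57BL/6 MEFs from mid-gestation embryos at passage 3, in medium with 10% serum per the labels (the general MEF protocol of the study names a higher content), and all of them received 1 μM tamoxifen for 48 h. The WT samples (WT 4, WT 5 and WT 8) carried the genotype Kansl1fl/fl, with loxP-flanked alleles and no Cre. The KO samples (KO 3, KO 7 and KO 10) were Kansl1fl/fl/CAG-cre, in which the ubiquitous CAG promoter drives a Cre recombinase that tamoxifen activates. Because no Cre-positive cells with intact Kansl1 were analysed here, loss of Kansl1 and presence of Cre cannot be told apart. The methods of the study speak of 3 mice per group.

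Glycolysis splits glucose into pyruvate in the cytosol, and lactate dehydrogenase can turn that pyruvate into lactate for export. Alternatively, pyruvate enters mitochondria, where the pyruvate dehydrogenase complex converts it into acetyl-CoA, and the TCA cycle then oxidises the acetyl group and yields reducing equivalents for respiration. Proliferating fibroblasts in culture use glycolysis heavily and also draw on the cycle for biosynthetic precursors. Several of the steps are shared among isozymes that differ in compartment or regulation, such as the cytosolic and mitochondrial malate dehydrogenases.

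The sequencing gave 17655495 to 27718259 reads assigned to genes per sample, as recovered from the TPM values, the fewest in KO 3 and the most in KO 7. Kansl1 itself was at 28.5, 26.7 and 24.4 TPM in the WT samples and at 13.7, 15.8 and 14.4 TPM in the KO samples, so its remaining transcript was 55.1% of WT and each KO sample lay below each WT sample. The value covers the whole gene, and reads in the deleted part were not examined, so it shows lower Kansl1 and does not tell a complete deletion from a partial one. All 8 fibroblast markers were present, with a summed level of 10270 to 14850 TPM in WT and 11000 to 14430 TPM in KO. The 6 macrophage markers were low in all samples but higher in KO, at 8.50 to 9.77 TPM summed in WT and 14.5 to 27.6 TPM in KO, with Cd68 leading and Ptprc and Itgam at most at 0.379 TPM. Epithelial markers (40.4 to 45.7 TPM against 49.2 to 66.3 TPM, nearly all from Krt18) and endothelial markers (1.10 to 1.87 TPM against 2.32 to 3.10 TPM) were also higher in KO, while the sums of muscle, neural and erythroid markers overlapped. As single genes, the muscle marker Actn2 (at most 0.362 TPM) lay higher in each KO sample and the neural marker Elavl4 lower. None of these markers passed the thresholds used for the enzymes in limma, although 4 macrophage, 2 epithelial, 1 endothelial and 1 neural marker were higher in KO at an unadjusted p-value under 0.05 and limma-voom called 1, the endothelial Kdr. Their part in the results was not tested. In bulk RNA, fewer cells of a type and less RNA per cell cannot be told apart.

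A single short RNA, Gm23935, held 15.5% to 25.6% of all TPM and was most abundant in WT 8 and KO 3. Within each group, these samples had the lowest summed expression of the 45 genes (8162 TPM in WT 8 and 7559 TPM in KO 3), which bears on every level given here. Levels were compared between groups by limma on log2(TPM + 1), and a gene was called changed at a Benjamini-Hochberg adjusted p-value under 0.005 over all genes tested together with a log2 fold change above 0.5 or below -0.5. Fold changes are KO over WT on that scale, where those of weakly expressed genes come out too small. The WT and KO samples of 29.9% of all tested genes were fully apart with KO below WT, and of 13.3% with KO above WT.

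All 45 genes reached the expression filter of 1 TPM in a group mean. Of these, 5 fell in KO MEFs and 0 rose, which is 11.1% called, against 10.7% of the 14799 genes tested. The share called lower was 11.1% against 9.03% of all tested genes, and the share called higher over all tested genes was 1.64%. The 5 genes were Mdh1, Pfkp, Idh3b, Pdk2 and Dlat. At an unadjusted p-value under 0.05 in limma, 18 members (against 27.2% of all tested genes) were lower and 2 (against 12.2%) were higher, and limma-voom on the recovered reads called 5 lower (against 12.2% of all tested genes) and 1 higher (against 4.34%). With an adjusted p-value under 0.05 as the threshold, limma called 8 members lower and 0 higher, and it called 16.6% of all tested genes lower. Median-of-ratios scaling gave 5 lower (against 10.1%) and 1 higher (against 2.99%), and a filter of 10 TPM gave 7 lower among 39 members tested (against 14.1%). Leaving out 1 sample at a time gave between 2 and 5 members lower and 0 higher in limma, with 2 (Mdh1 and Pdk2) when WT 5 was left out, 3 without KO 3 or without KO 10, 4 without WT 4 or without KO 7 and 5 without WT 8. The share of all tested genes called lower in these fits ran from 4.16% without WT 5 to 6.34% without KO 7.

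The log2 fold change was negative for 35 of the 45 genes (77.8%) against 57.4% of all genes tested, with a median of -0.17 against -0.07 over all genes tested. In 20 members (44.4%, against 29.9% of all tested genes), each KO sample lay below each WT sample. In 2 members, Gpi1 and Idh1 (4.44%, against 13.3% of all tested genes), each KO sample lay above. The 22 genes of glycolysis and lactate handling had 1 fall (4.55%) and a median of -0.15. The 23 genes of pyruvate entry and the TCA cycle, with their cytosolic counterparts, had 4 falls (17.4%) and a median of -0.33. Of all tested genes, 9.03% were called lower, and the difference between these groups of genes was not tested.

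**Figure D1:**
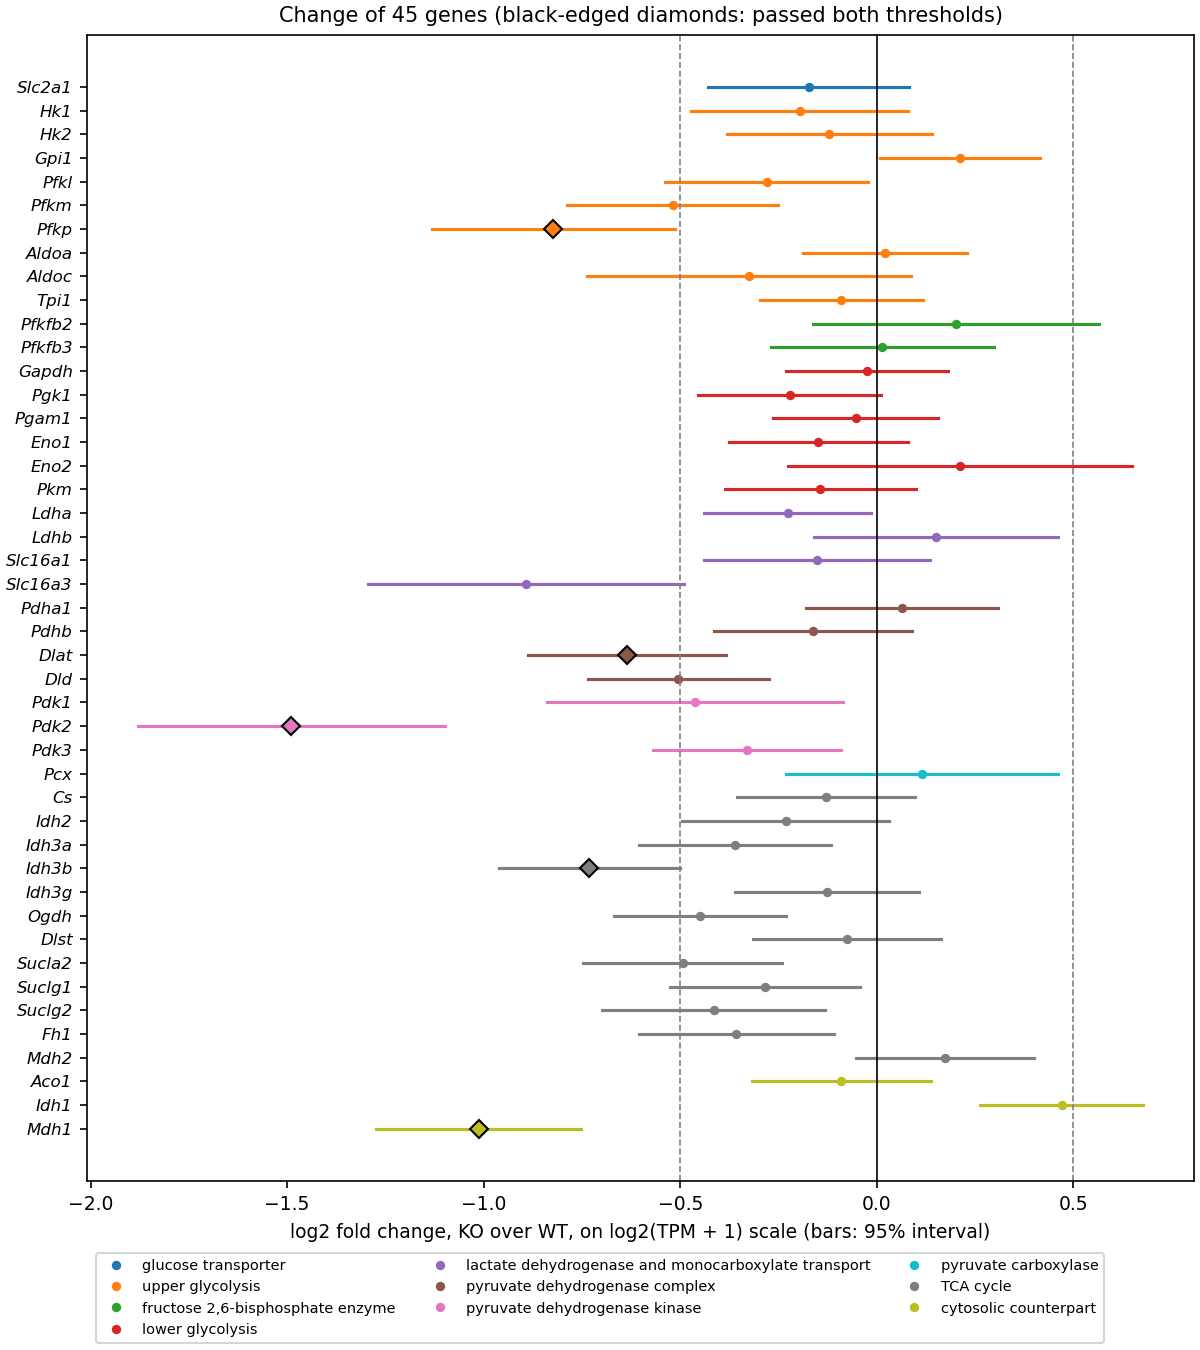
Log2 fold change of KO over WT on the log2(TPM + 1) scale for each of the 45 genes (points, with bars for the 95% interval), coloured by step of the pathway, with dashed lines at -0.5 and 0.5. Black-edged diamonds mark the 5 genes that passed both thresholds, all on the negative side, and Idh1 is the highest point at 0.47.

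The promoters of called members were read from RefSeq (GRCm38.p6) as the 250 bases before the annotated start, to show the sequence at these genes. Of the 45 genes, 44 had an entry. For Mdh1 and Idh3b, the RefSeq start lies inside the longer gene model used for the TPM table, so the window covers transcribed sequence and is not printed. The windows of the other 3 called genes follow, 5′ to 3′ on the strand of the gene, with capitals for the letters CCAAT (written ATTGG on the opposite strand) and for CACGTG, the core of the E-box that MYC and related factors bind. They lie on the minus strand at chr13:6648772-6649021 for Pfkp, chr9:50659781-50660030 for Dlat and chr11:95041372-95041621 for Pdk2.
Pfkp: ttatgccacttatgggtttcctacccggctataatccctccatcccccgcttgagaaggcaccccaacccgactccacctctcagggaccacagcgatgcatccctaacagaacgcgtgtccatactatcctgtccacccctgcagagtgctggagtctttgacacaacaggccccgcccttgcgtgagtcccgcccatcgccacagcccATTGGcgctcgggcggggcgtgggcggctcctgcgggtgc
Dlat: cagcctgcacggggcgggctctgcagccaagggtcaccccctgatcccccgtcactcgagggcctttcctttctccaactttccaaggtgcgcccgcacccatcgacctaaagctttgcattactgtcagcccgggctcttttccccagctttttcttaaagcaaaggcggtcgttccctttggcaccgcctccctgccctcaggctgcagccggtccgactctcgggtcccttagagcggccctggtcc
Pdk2: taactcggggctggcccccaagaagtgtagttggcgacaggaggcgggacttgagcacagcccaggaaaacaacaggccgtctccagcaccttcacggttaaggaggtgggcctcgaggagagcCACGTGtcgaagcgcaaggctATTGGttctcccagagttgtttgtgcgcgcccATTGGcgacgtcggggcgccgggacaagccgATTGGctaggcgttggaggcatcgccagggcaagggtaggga

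The Pdk2 window held the letters CCAAT 3 times and CACGTG once, that of Pfkp held CCAAT once, and that of Dlat held neither. Searched on both strands, CCAAT was present in 2 of the 3 printed windows (Pfkp and Pdk2) and in 18 of 44 members (40.9%), against 33.8% of 32851 RefSeq promoters of the same length. The GC box letters GGGCGG occurred in 28 members (63.6%) against 32.7% of promoters, and ACGTG, the core of the hypoxia response element and also part of CACGTG, in 16 members (36.4%) against 16.6%. CACGTG was found in 5 members (11.4%) against 6.02%, and the ETS letters CCGGAAG in 2 members (4.55%) against 6.91%. Of the 44 member windows, 20 lie by more than 30 bases inside their own gene model, so these shares are over RefSeq starts and not over the starts of the transcripts measured. In the other 24 windows, CCAAT occurred in 50.0%, GGGCGG in 58.3%, ACGTG in 37.5%, CACGTG in 16.7% and CCGGAAG in 4.17%. The 32851 promoters hold several starts for some genes and were not limited to expressed genes, while each member gave a single start. The shares are therefore not matched for expression or for starts per gene. These matches describe the sequence and are not binding sites.

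Glucose enters fibroblasts mainly through GLUT1, encoded by Slc2a1, which stood at 101, 118 and 114 TPM in the WT samples and 86.2, 101 and 108 TPM in the KO samples. The groups overlapped, with a log2 fold change of -0.17. The hexokinases Hk1 and Hk2, which trap glucose as glucose 6-phosphate, had log2 fold changes of -0.20 and -0.12 and overlapped as well. Gpi1, the isomerase of the next step, was at 102, 107 and 98.7 TPM in WT against 113, 121 and 123 TPM in KO, every KO sample above every WT sample, but the change of 0.21 on the log2 scale did not pass (limma adjusted p = 0.112).

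Phosphofructokinase carries out the committed step of glycolysis and is built from 3 kinds of subunit. Pfkp, the platelet-type subunit, fell from 17.1, 18.3 and 15.1 TPM in the WT samples to 7.51, 10.2 and 9.64 TPM in the KO samples. All KO values were below all WT values, and the KO mean was 54.2% of WT (9.12 ± 1.43 TPM against 16.8 ± 1.65 TPM, SD, n = 3 each). The log2 fold change was -0.82 (SE 0.14), with adjusted p = 0.00241 in limma. Pfkp (ENSMUSG00000021196.14, chr13:6579768-6648777, minus strand, mm10) shares 748 bp of exon, 5.58% of its exon length, with the opposite-strand gene Pitrm1, which was at 76.6 to 106 TPM. The library kit was taken as not marking strand, which the study does not state. Pitrm1 reads were assumed to be spread evenly over its exons, with those in the shared bases all counted to Pfkp. They would then make up 31.4% to 34.6% of the Pfkp reads in WT and 50.6% to 56.9% in KO. The level of Pfkp and its share of the family are uncertain by that much, and how such reads were counted is not given in the sources used here. The call was lost without WT 4, WT 5, KO 3 or KO 10, where the limma adjusted p lay between 0.00563 and 0.01002 and the log2 fold change between -0.86 and -0.70.

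The muscle-type subunit Pfkm was at 22.8, 23.6 and 19.5 TPM in WT and 14.0, 16.7 and 14.4 TPM in KO. These groups were apart too, but the log2 difference of -0.52 (limma adjusted p = 0.0110) was not called. The liver-type subunit Pfkl, the most abundant of the family, was at 43.9, 52.6 and 43.0 TPM against 34.5, 40.4 and 39.3 TPM, differing by -0.28 on the log2 scale (limma adjusted p = 0.102). Each of the 3 subunits thus had its KO samples below its WT samples, as did 29.9% of all tested genes. Only Pfkp passed the thresholds in the main comparison. Pfkfb2 and Pfkfb3, the bifunctional enzymes that set the level of an activator of phosphofructokinase, overlapped between groups at 2.04 to 3.10 TPM and 11.4 to 14.6 TPM over all samples.

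The remaining steps of glycolysis held the most abundant transcripts of the set and no called gene. With a WT mean above 500 TPM, 7 genes (Gapdh, Eno1, Pkm, Pgam1, Ldha, Pgk1 and Aldoa) together made up 72.0% of the summed WT expression of the 45 genes, and their log2 fold changes lay between -0.23 and 0.02. Gapdh, the oxidising enzyme of the pathway and the highest of all, was at 1486, 1520 and 1442 TPM in WT and 1401, 1517 and 1455 TPM in KO. Its 95% interval for the log2 fold change ran from -0.23 to 0.18. Pgk1, the first ATP-forming enzyme, lay lower in each KO sample (log2 fold change -0.22, limma adjusted p = 0.145), whereas Aldoa, Tpi1, Pgam1, Eno1 and Pkm overlapped. The minor isozyme Aldoc was at 1.19 to 1.44 TPM in WT and 0.759 to 0.927 TPM in KO, so its groups were apart at 64.5% of WT, but it was not called (log2 fold change -0.33, limma adjusted p = 0.220). At this low level its log2 fold change depended on the pseudocount, with -0.58 at 0.1 and -0.54 in limma-voom, and it was not called there either. Eno2 overlapped at 5.22 to 10.5 TPM over all samples (0.21).

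Near-identical copies limit 3 of these levels. Pgam1-ps2 held 89.0% to 97.4% as many TPM as Pgam1, Eno1b 17.6% to 19.0% as many as Eno1, and Pgk1-rs7 10.5% to 11.4% as many as Pgk1. How reads were split between a gene and its copy is not given in the sources used here.

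**Figure D2:**
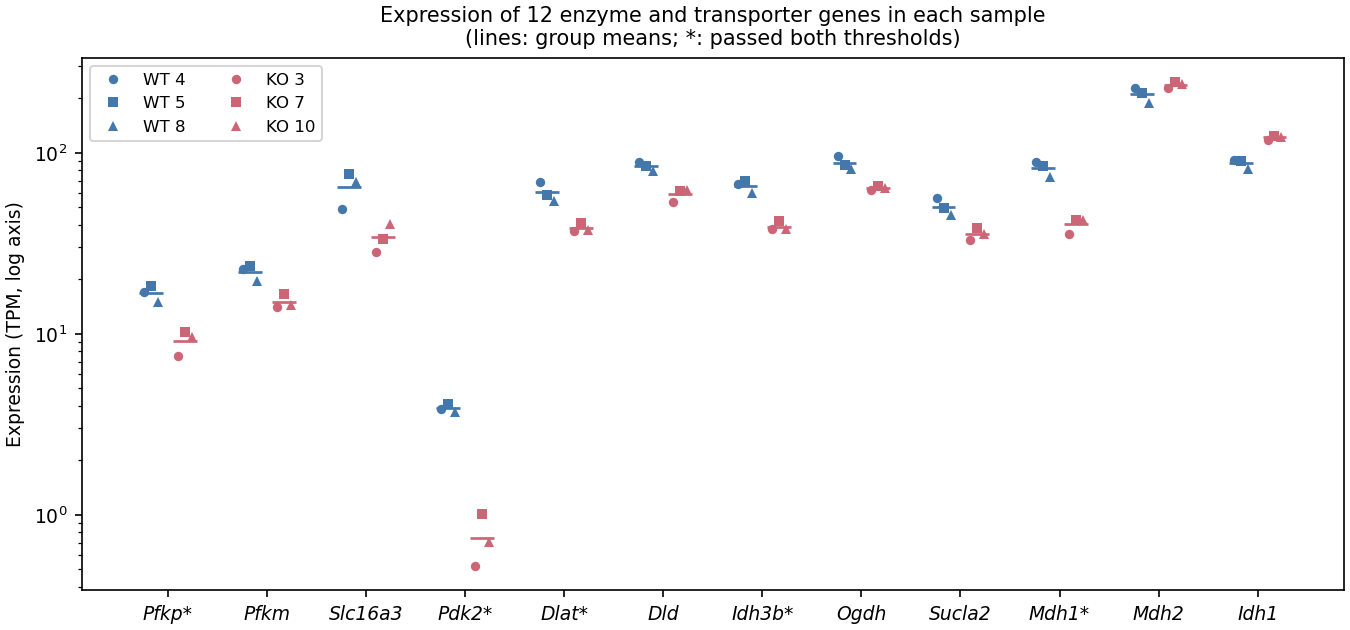
Expression in TPM (log axis) of 12 enzyme and transporter genes in each sample, WT in blue and KO in red, with lines for the group means and asterisks for genes that passed both thresholds. The KO samples of Pdk2 lie between 0.522 and 1.01 TPM, while those of Idh1 lie above the WT samples and those of Mdh2 overlap with them.

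At the lactate branch, Ldha, the main subunit of lactate dehydrogenase, was at 811, 832 and 764 TPM in WT and 641, 700 and 716 TPM in KO. The groups were apart, with a KO mean of 85.5% of WT and a log2 fold change of -0.23 (limma adjusted p = 0.104). Ldhb overlapped at 29.0 to 42.4 TPM. Slc16a3, which encodes the lactate exporter MCT4, was at 48.8, 76.5 and 68.7 TPM in the WT samples and 28.3, 33.6 and 40.4 TPM in the KO samples. All KO samples were below all WT samples, but WT 4 stood apart from the other WT samples, and the log2 fold change of -0.89 (SE 0.18, limma adjusted p = 0.00565) just missed the threshold. It was called without WT 4, at -1.08 (limma adjusted p = 0.00146), and without KO 10, at -1.02 (0.00404). Over all alternatives its adjusted p ran from 4.31e-06 to 0.0286. The other monocarboxylate transporter, Slc16a1 (MCT1), overlapped at 20.7 to 30.1 TPM.

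At pyruvate entry into the TCA cycle, Dlat fell and the decarboxylase subunits overlapped between groups on the deposited scale. The difference between subunits was not tested. The pyruvate dehydrogenase complex joins a decarboxylase (Pdha1 and Pdhb), a lipoate-bearing acetyltransferase core (Dlat) and a dehydrogenase that reoxidises the lipoate (Dld). Dlat fell from 68.8, 58.1 and 54.5 TPM in the WT samples to 37.0, 40.7 and 37.5 TPM in the KO samples. The groups did not overlap, the KO mean was 63.5% of WT (38.4 ± 2.01 TPM against 60.5 ± 7.42 TPM, SD, n = 3 each), and the log2 fold change was -0.64 (SE 0.11, limma adjusted p = 0.00306). Dlat (ENSMUSG00000000168.9) lies at chr9:50634633-50659780 on the minus strand and shares no exon with another gene. Its call was lost when WT 4, WT 5, KO 3, KO 7 or KO 10 was left out (limma adjusted p 0.00669 to 0.0149), and was kept without WT 8, while its log2 fold change stayed between -0.71 and -0.54 in these fits.

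Dld, which also serves the oxoglutarate dehydrogenase complex, was at 89.2, 84.1 and 79.0 TPM against 53.3, 61.6 and 62.2 TPM. Its groups were apart at 70.2% of WT, and only the adjusted p-value kept it from being called (log2 difference -0.50, limma adjusted p = 0.00612). Of the decarboxylase subunits, Pdha1 was at 109, 104 and 94.6 TPM in WT and 95.1, 116 and 112 TPM in KO, and Pdhb at 46.0, 45.3 and 39.5 TPM against 35.4, 43.1 and 38.2 TPM. Both overlapped as deposited, with log2 fold changes of 0.06 (95% interval -0.18 to 0.31) and -0.16 (-0.41 to 0.09). With Gm23935 removed, and with median-of-ratios scaling, each KO sample of Pdhb lay below each WT sample. For Pdha1, each KO sample lay above each WT sample with median-of-ratios scaling only.

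Kinases of the Pdk family phosphorylate the complex and switch it off. For each of the 3 in the set the KO samples lay below the WT samples, as in 29.9% of all tested genes. Pdk2 fell from 3.82, 4.11 and 3.70 TPM in the WT samples to 0.522, 1.01 and 0.708 TPM in the KO samples. It had the lowest log2 fold change of the 45 genes, at -1.49 (SE 0.17, limma adjusted p = 0.000487), and its KO mean was 19.3% of WT (0.747 ± 0.247 TPM against 3.88 ± 0.210 TPM, SD, n = 3 each). Pdk2 (ENSMUSG00000038967.13) lies at chr11:95026258-95041354 on the minus strand and overlaps no other exon. At this low level the pseudocount of 1 matters, and the log2 fold change was -2.27 with a pseudocount of 0.1 and -2.25 with limma-voom. Between 12 and 114 reads per sample stood behind these values, so the lowest of them carries a large counting error.

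Pdk3 was by far the most abundant kinase of the family, at 48.3, 43.8 and 39.1 TPM in WT and 34.6, 35.3 and 33.5 TPM in KO, with a log2 fold change of -0.33 (limma adjusted p = 0.0445). Pdk1, the hypoxia-inducible kinase, was at 5.63, 7.81 and 6.72 TPM against 3.57, 5.17 and 5.13 TPM (-0.46, limma adjusted p = 0.0684). Neither was called. Pdk4, the family member outside the 45 genes, overlapped between groups (-0.09). Pcx, pyruvate carboxylase, which feeds oxaloacetate into the cycle instead of acetyl-CoA, overlapped at 4.47 to 6.64 TPM over all samples.

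**Figure D3:**
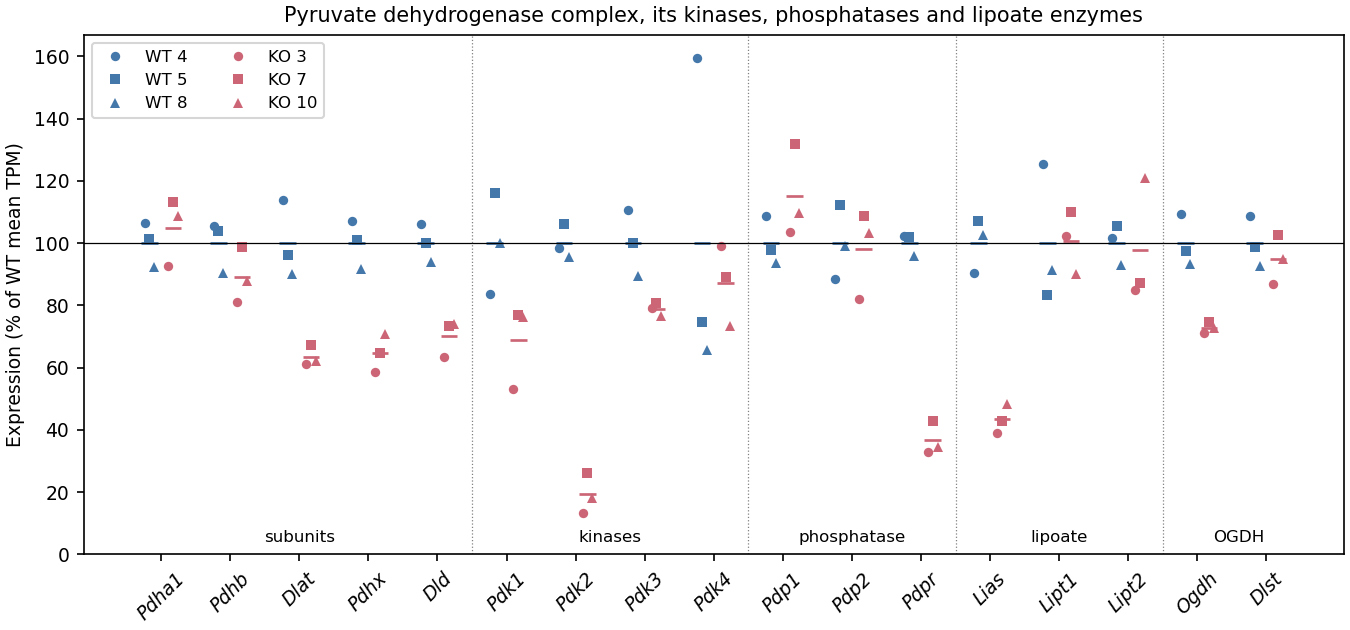
Expression of the pyruvate dehydrogenase complex, its kinases and phosphatases, the lipoate enzymes and the oxoglutarate dehydrogenase complex in each sample, as a percentage of the WT mean TPM of the gene, with lines for the group means. The KO mean is 104.8% of WT for Pdha1, 63.5% to 72.7% for Dlat, Pdhx, Dld and Ogdh, and 19.3% to 43.4% for Pdk2, Pdpr and Lias.

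Other genes of the same pathways, which are not among the 45, were compared from a list of 41. Of these, 36 were in the table and 28 were tested, of which 3 fell (10.7%, against 9.03% of all tested genes) and 0 rose, with a median log2 fold change of -0.20. At an unadjusted p-value under 0.05 in limma, 9 (against 27.2% of all tested genes) were lower and 0 (against 12.2%) were higher, and limma-voom called 4 of them lower (against 12.2%) and 0 higher. The genes that fell were Pdpr, Lias and Slc2a8, and the first pair of them acts on the pyruvate dehydrogenase complex.

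Pdpr, a regulatory subunit of the phosphatase that reactivates the complex, fell from 12.2, 12.1 and 11.4 TPM in WT to 3.94, 5.11 and 4.12 TPM in KO (log2 fold change -1.27, SE 0.13, limma adjusted p = 0.000281). Lias, the lipoic acid synthase whose product Dlat and Dlst carry, fell from 11.7, 13.9 and 13.3 TPM to 5.05, 5.58 and 6.25 TPM (-1.08, SE 0.13, limma adjusted p = 0.000487). For both genes the groups were far apart. The catalytic phosphatase subunits Pdp1 and Pdp2 and the lipoyl transferase genes Lipt1 and Lipt2 overlapped, with log2 fold changes between -0.04 and 0.17. Reads of the opposite-strand gene Mitd1, counted in the same way as those of Pitrm1 above, would make up 12.9% to 38.8% of the Lipt1 reads. Pdhx, which anchors the Dld protein to the core, was at 64.7% of WT with the groups apart (-0.57, limma adjusted p = 0.00678) and was not called. Exons of Pdpr share 169 bp and those of Lias 43 bp with an opposite-strand gene, whose reads would make up at most 1.96% and 0.0293% of theirs. Slc2a8, an intracellular glucose transporter, fell from 5.42, 5.65 and 5.29 TPM to 2.10, 3.02 and 2.55 TPM (-0.87, SE 0.15, limma adjusted p = 0.00256), and was no longer called without WT 4, WT 5, WT 8, KO 3 or KO 10 (0.00694 to 0.0117).

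Within the TCA cycle, 1 of 12 mitochondrial enzyme genes fell (8.33% against 9.03% of all tested genes) and 7 had KO samples fully below WT samples (58.3% against 29.9%). The NAD-linked isocitrate dehydrogenase is assembled from 3 kinds of subunit, of which Idh3a is catalytic and Idh3b and Idh3g are needed for its assembly and regulation. Idh3b fell from 67.2, 69.8 and 60.1 TPM in the WT samples to 37.7, 42.1 and 37.7 TPM in the KO samples. Its groups were well separated, its KO mean was 59.6% of WT (39.2 ± 2.51 TPM against 65.7 ± 5.03 TPM, SD, n = 3 each), and the log2 fold change was -0.73 (SE 0.10, limma adjusted p = 0.00109). Idh3b (ENSMUSG00000027406.12, chr2:130279309-130284547, minus strand) overlaps the opposite-strand gene Nop56 over 5 bp of exon. Its call was lost without WT 5 (limma adjusted p = 0.00579) and without KO 10 (0.00578).

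Its partner Idh3a was at 88.3, 78.2 and 70.3 TPM in WT and 58.4, 64.5 and 60.2 TPM in KO, apart but not called (-0.36, limma adjusted p = 0.0348). Idh3g, at 54.2, 52.3 and 49.2 TPM against 43.0, 51.9 and 47.8 TPM, overlapped as deposited (-0.13). The subunits of this enzyme therefore lay at 59.6%, 77.3% and 91.6% of WT for Idh3b, Idh3a and Idh3g.

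Ogdh, the first enzyme of the oxoglutarate dehydrogenase complex, was at 95.8, 85.3 and 81.8 TPM in WT and 62.2, 65.4 and 63.6 TPM in KO. The groups were apart at 72.7% of WT, with a log2 fold change of -0.45 (limma adjusted p = 0.00816), short of both thresholds. Its partner Dlst, the succinyltransferase core, overlapped at 52.8 to 66.0 TPM. All subunits of succinyl-CoA ligase, which makes nucleoside triphosphate directly, lay lower in each KO sample, as did 29.9% of all tested genes. Sucla2, the ADP-linked subunit, was at 56.2, 49.7 and 45.6 TPM against 32.8, 38.3 and 35.4 TPM (-0.49, limma adjusted p = 0.0105), the GDP-linked Suclg2 at 74.5% of WT (-0.41, 0.0358) and the shared Suclg1 at 81.5% of WT (-0.29, 0.0782). None of these was called.

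Fumarase, Fh1, was at 59.4, 53.5 and 51.0 TPM in WT and 37.9, 46.2 and 43.4 TPM in KO, again apart and not called (-0.36, limma adjusted p = 0.0385). Citrate synthase, Cs, overlapped at 142 to 179 TPM, with a 95% interval of -0.36 to 0.10 for its log2 fold change. Succinate dehydrogenase is encoded by other pathway genes, and its 4 subunits Sdha, Sdhb, Sdhc and Sdhd had log2 fold changes of -0.18, -0.23, -0.47 and -0.35, none of them called. Sdha, Sdhc and Sdhd lay lower in each KO sample (limma adjusted p = 0.191, 0.0175 and 0.0217), and Sdhb overlapped.

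Malate and isocitrate dehydrogenases exist in cytosolic and mitochondrial forms. Mdh1, the cytosolic malate dehydrogenase of the malate-aspartate shuttle, fell from 89.0, 84.5 and 73.6 TPM in the WT samples to 35.6, 42.7 and 42.7 TPM in the KO samples. The groups lay far apart, and the KO mean was 49.0% of WT (40.3 ± 4.12 TPM against 82.4 ± 7.92 TPM, SD, n = 3 each). The log2 fold change was -1.01 (SE 0.12, limma adjusted p = 0.000453), and Mdh1 was called lower under every alternative run, with adjusted p from 3.37e-08 to 0.00429. Mdh1 (ENSMUSG00000020321.15, chr11:21556787-21572367, minus strand) overlaps Wdpcp over 52 bp of exon. Its mitochondrial counterpart Mdh2, the cycle enzyme, was at 230, 215 and 190 TPM in WT and 228, 246 and 240.2 TPM in KO and overlapped, with a log2 fold change of 0.17 (95% interval -0.05 to 0.40). With Gm23935 removed, and with median-of-ratios scaling, each KO sample of Mdh2 lay above each WT sample.

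Idh1, the cytosolic NADP-linked isocitrate dehydrogenase, had the highest log2 fold change of the set. It was at 91.4, 90.0 and 81.2 TPM in the WT samples and 118, 123 and 123 TPM in the KO samples, with every KO sample above every WT sample. Its log2 fold change of 0.47 (SE 0.09, limma adjusted p = 0.00508) missed both thresholds by little. It was called higher with median-of-ratios scaling (0.56) and with limma-voom on recovered reads (0.58), settings that moved the median of all genes by 0.08 and 0.10. As deposited, the mitochondrial Idh2 overlapped at 106 to 117 TPM in WT and 81.6 to 108 TPM in KO (-0.23). Its KO samples lay fully below with Gm23935 removed and with median-of-ratios scaling. Aco1, the cytosolic aconitase that also binds iron-responsive RNA, overlapped at 44.2 to 53.0 TPM as deposited.

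Shares of isozymes within a sample do not move with the scaling of that sample, and 15 shares in 11 isozyme families were therefore compared. The Mdh2 share of malate dehydrogenase transcripts was 72.1%, 71.8% and 72.0% in the WT samples and 86.5%, 85.2% and 84.9% in the KO samples. The WT samples differed by less than 1 point, and the group means were 13.6 points apart. The Idh2 share of the NADP-linked isocitrate dehydrogenases was 55.0%, 56.5% and 56.5% against 40.8%, 46.8% and 43.8%, a difference of -12.2 points, so that Idh2 was the more abundant in each WT sample and Idh1 in each KO sample.

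Among the kinases, the Pdk2 share went from 7.16 ± 0.469% in WT to 1.86 ± 0.547% in KO (SD, n = 3 each), while that of Pdk3 went from 80.4 ± 2.81% to 86.5 ± 2.48% and that of Pdk1 overlapped. With recovered reads in place of TPM, the groups of the Pdk3 share overlapped, as WT 4 lay above KO 7 and KO 10. The Pfkp share of phosphofructokinase transcripts was 20.4%, 19.4% and 19.4% against 13.4%, 15.2% and 15.2%, and that of Pfkl was higher in each KO sample by 6.73 points on average. The Pfkp share differed by -5.13 points between the group means, and by -8.47 points when recovered reads replaced TPM. The Slc16a3 share of the lactate transporters was 61.9%, 74.7% and 74.3% in WT and 57.8%, 57.4% and 60.9% in KO, where WT 4 lay close to KO 10. Smaller shifts with groups apart were seen for Ldhb (1.14 points higher, or 0.567 points with recovered reads), Pfkfb3 (2.62 points lower in KO, at 81.4% against 84.1%) and Aldoc (0.142% against 0.223%). In all, 10 of the 15 shares did not overlap between groups. Each of these had an exact two-sided permutation p of 0.1, the smallest that 3 samples against 3 can give, and an adjusted p of 0.15, so this test could not pass a 0.05 threshold. Shares of a family are parts of the same whole, so those of Pfkl and Pfkp, and of Pdk2 and Pdk3, are not independent. No such count was made for other gene families.

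**Figure D4:**
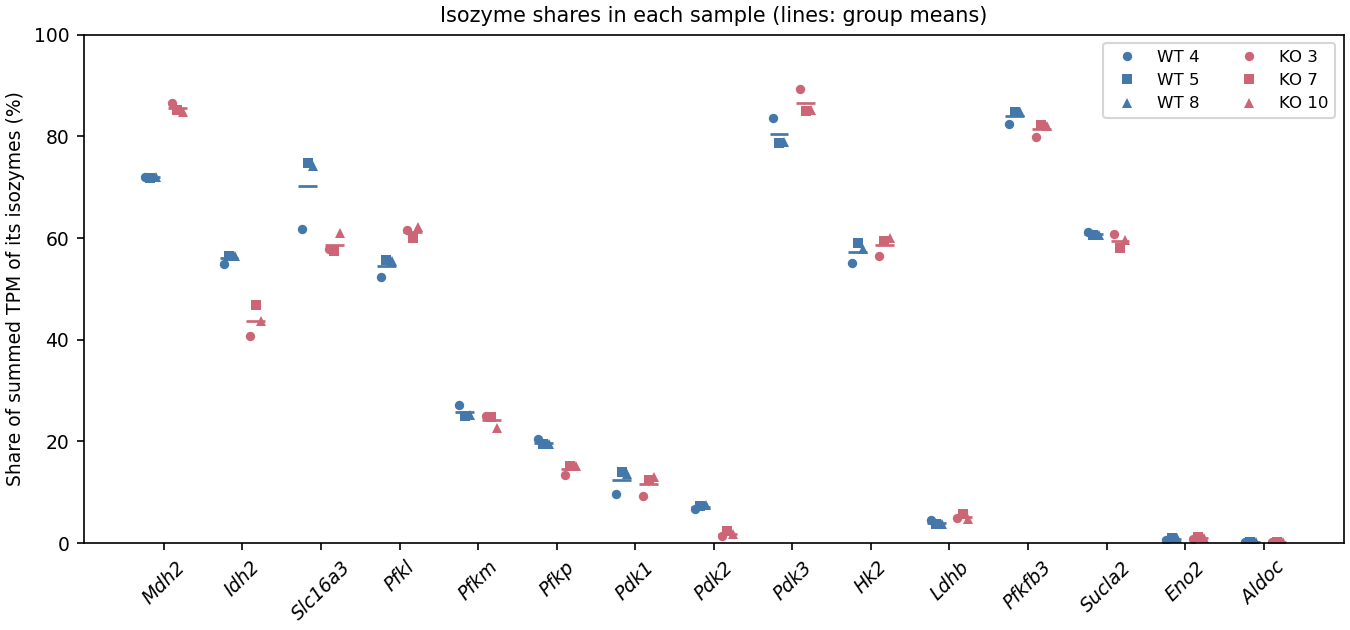
Share of each named isozyme in the summed TPM of its isozymes (in %, from 0 to 100) in each sample, WT in blue and KO in red, with lines for the group means. The mean Mdh2 share is 72.0% in WT and 85.5% in KO, and the mean Idh2 share is 56.0% in WT and 43.8% in KO.

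Summed over the 45 genes, expression was 9093, 8838 and 8162 TPM in the WT samples and 7559, 8288 and 8078 TPM in the KO samples, and the groups overlapped. When Gm23935 was removed and TPM rescaled, the sums became 10760, 10820 and 10790 in WT and 10160, 9810 and 10080 in KO. The SD of the WT samples then went from 481 to 31.1 TPM, and each KO sample lay below each WT sample at a mean of 92.8% of WT. With median-of-ratios scaling the KO mean was 97.6% of WT and the groups overlapped. The sum over pyruvate and TCA cycle genes was 1441 to 1684 TPM in WT and 1284 to 1463 TPM in KO on the deposited scale, with a KO mean of 87.7% of WT, and the groups overlapped. It lay below WT in each KO sample in both rescaled forms, at 88.8% and 93.3% of WT. For glycolysis and lactate genes, the KO mean of the sum was 92.6% of WT as deposited and 98.5% with median-of-ratios scaling, with overlapping groups in both, and 93.7% with Gm23935 removed, where each KO sample lay below each WT sample. After removal of Gm23935, KO was fully below WT in 28 members (62.2%) against 34.6% of all tested genes, and fully above in 3 (6.67%) against 19.8%. With median-of-ratios scaling, KO was fully below WT in 23 members (51.1%) against 30.2%, and fully above in 6 (13.3%) against 26.4%. Of the members that overlapped as deposited, Pdhb, Idh2 and Idh3g lay fully below in both forms, and Mdh2 fully above in both. Aco1, Cs, Eno1, Hk1 and Pkm lay fully below only after removal of Gm23935. Pdha1, Pfkfb2 and Pfkfb3 lay fully above only with median-of-ratios scaling.

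Hypoxia-inducible genes outside the 45 were compared because many glycolytic genes belong to that response. All 17 were tested and 0 were called by limma, with a median log2 fold change of -0.10. At an unadjusted p-value under 0.05, 0 were lower (against 27.2% of all tested genes) and 3 were higher (against 12.2%), and limma-voom called 1, Ddit4, as higher (against 4.34%). Ddit4, a stress-induced inhibitor of mTOR signalling, was at 79.9, 129 and 98.8 TPM in WT and 145, 178 and 163 TPM in KO (0.68, limma adjusted p = 0.0138 in the main comparison, 0.000120 to 0.0526 over all alternatives). Limma called it higher with a filter of 10 TPM, without WT 5 (0.86, adjusted p = 0.00322) and at an adjusted p-value under 0.05. Vegfa, Car9, Bnip3 and Hif1a overlapped. Of 7 pentose phosphate genes, 0 were called by limma or by limma-voom, while 2 were lower (against 27.2% of all tested genes) and 1 was higher (against 12.2%) at an unadjusted p-value under 0.05. Taldo1 (-0.45) and Rpia (-0.71) lay below WT in each KO sample, with limma adjusted p of 0.0114 and 0.0188, and Pgd lay above WT in each (0.23, 0.101). G6pdx, which like Pgd encodes an NADPH-forming enzyme, lay below WT in each KO sample, though by little at the nearest samples (41.6 to 56.3 TPM in WT against 40.1 to 41.4 TPM in KO, log2 fold change -0.20, limma adjusted p = 0.265).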

How the data were processed

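Primary MEF RNA (2 μg per sample) was sequenced in 6 samples, grouped by their titles into WT 4, WT 5 and WT 8 and KO 3, KO 7 and KO 10. Per the study's methods, libraries were made with the NEBNext Ultra RNA kit and reads were aligned to mm10 with STAR. The submitters' processing notes name Bowtie 0.12.2. The methods do not state whether strand was kept, and the kit was taken here as not marking it. The counting program is not given in the sources used here. The authors deposited TPM, which scales every sample to the same total, so 1 abundant RNA lowers the TPM of all others. The table also held 2 columns of the authors' own comparison, a fold change and an adjusted p-value, which were not used. The labels do not say that the samples of a group came from separate embryos, and p-values measure the spread between these samples.

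Whole reads were recovered by multiplying TPM by merged exon length (GENCODE M21, same build, all 26898 identifiers matched). Of the values checked, 100.0% were whole multiples of a step per sample at a tolerance of 0.05. Depth limits the precision of Pdk2 and Aldoc most. Genes whose mean TPM reached 1 in WT or in KO were tested with limma 3.58.1 in R 4.3.3, two-sided, on log2(TPM + 1) with a variance trend and no covariate. The filter and both thresholds follow the study. Isozyme shares were compared by an exact permutation test with Benjamini-Hochberg adjustment.

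The members and all gene lists were chosen with earlier results of these data known. An item of the list of other pathway genes is not reported here. Every member could be named, and called members are given in full. Members that were not called have values where they are isozymes, partners or neighbouring steps, and other lists are given by counts and called genes. Genes named beyond this rule (Slc2a1, Pdk4, Pdhx, Ddit4, single cell type markers, Gm23935, overlapping or near-identical genes, and succinate dehydrogenase, lipoyl transferase, phosphatase, hypoxia and pentose phosphate genes) were chosen after their values were seen. Alternatives were a pseudocount of 0.1, no filter, a filter of 10 TPM, median-of-ratios scaling, removal of the most abundant RNA, limma-voom on recovered reads, no variance trend, an adjusted p-value under 0.05 and leaving out each sample. Promoters came from RefSeq (GRCm38.p6).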

Additional observations from a re-analysis of the deposited data

How the results depend on the processing

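No paired analysis was possible because no replicate number occurs in both groups. Against 5 members lower and 0 higher, 2 were lower with no filter (Mdh1 and Pdk2, where 1.06% of all genes were called lower against 9.03% in the main comparison), 3 with no variance trend (Idh3b, Mdh1 and Pdk2, against 7.76% of all genes) and 8 at an adjusted p-value under 0.05, where Dld, Pfkm and Slc16a3 were added. Median-of-ratios scaling and limma-voom each gave 1 member higher (Idh1), beside the same 5 lower. A filter of 10 TPM, which left Pdk2 untested, gave 7 lower of 39 tested, and removal of the most abundant RNA gave 6 (against 11.8% of all genes). Leaving out 1 sample gave 2 to 5 lower and 0 higher, against 4.16% to 6.34% of all genes lower. Mdh1 was lower in each of these, and Pdk2 in each that tested it. Of the other gene lists, 3 genes were called in the main comparison, 5 with limma-voom, 6 at an adjusted p-value under 0.05 and 2 to 3 without 1 sample.

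Of 624 values of single members under the alternatives, 584 kept their direction and their side of the thresholds, 16 lost and 11 gained a call, and 13 changed sign, in 7 genes whose main log2 fold change lay between -0.09 and 0.02. Under median-of-ratios scaling the log2 fold change became 0.0637 for Gapdh, 0.0346 for Pgam1 and 0.0116 for Dlst, and with limma-voom 0.0794 for Gapdh, 0.05 for Pgam1, 0.0280 for Dlst, 0.0142 for Tpi1 and 0.0112 for Aco1. These settings moved the median of all genes by 0.08 and 0.10. Without 1 sample the log2 fold change ran from -0.0791 to 0.0880 for Pfkfb3, from -0.0206 to 0.0621 for Aldoa and from -0.0542 to 0.0032 for Gapdh. The log2 fold change of Pdk2 went from -1.49 to -2.27 with a pseudocount of 0.1 and to -2.25 with limma-voom, and that of Aldoc from -0.33 to -0.58 and -0.54. The difference in the Pdk1 share, -0.865 points, ran from -2.22 to 0.310 points and changed sign without KO 3. With recovered reads in place of TPM, the difference in share went from -5.13 to -8.47 points for Pfkp, from 6.73 to 8.73 for Pfkl, from -1.60 to -0.261 for Pfkm, from 1.14 to 0.567 for Ldhb and from 13.6 to 11.1 for Mdh2. Of the 15 isozyme shares, 9 did not overlap when recovered reads replaced TPM and 10 to 14 without 1 sample. The cause of these differences was not tested. With 3 samples per group the exact test of shares cannot pass 0.05 at any difference. Depth limits Pdk2, with 12 reads in its lowest sample, and Aldoc, with 21.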
